A study of Arabidopsis thaliana with 9 samples.

Results

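In Arabidopsis thaliana seedlings, 68 of 24635 genes measured were lower both in the flavin mutant melinoe and in wild-type plants given riboflavin than in untreated wild type. They were chosen from the data: for each gene a difference d, the log2 of the mean CPM plus 1 in a group minus the same in untreated plants, had to be at most -1 in melinoe and in riboflavin. CPM is a gene's count scaled to the total of its library. This condition held for 87 genes, of which 19 were set aside because their symbol marks one of several gene families left out of the set, such as WRKY, MYB, CYP, GST and IAA. The 87 are 34.0% of the 256 genes with such a d in melinoe and 6.22% of the 1399 genes with it in riboflavin, and 0.353% of all genes. Both differences are taken against the same Col-0 libraries, so these shares are counts fixed by the rule and no evidence of a common response.

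Polyadenylated RNA of whole 6-day seedlings, grown with 16 h of light and 8 h of dark on sucrose-containing medium, was sequenced in 3 groups of 3 libraries, described as biological replicates. Melinoe is an EMS-mutagenised line with a lesion in FMN/FHY (AT4G21470), whose protein is both a riboflavin kinase and an FMN hydrolase; chemical mutagenesis can leave other changes in such a line. The riboflavin group is Col-0, the wild type, exposed to riboflavin during 8 h of the night at 0.6 mM according to the sample labels and 0.2 mM according to the design text. Col-0 without riboflavin is the third group. The time of day at which melinoe and Col-0 seedlings were harvested, and any mock treatment, are not given in the sources used here, so riboflavin and hours of darkness cannot be told apart. Melinoe and riboflavin seedlings differ in genotype, in treatment and possibly in the hour of harvest. Whole seedlings were used, so fewer cells of a type and less RNA per cell cannot be told apart either.

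Riboflavin is the precursor of the cofactors FMN and FAD, which flavoenzymes and blue-light receptors carry. Of the 68 genes, 8 encode AP2/ERF transcription factors, a family whose transcripts are often known to appear quickly after wounding, cold, touch or oxidative stress. Another 7 serve sulfur amino acids and glucosinolates, sulfur compounds of crucifers that can yield isothiocyanates when tissue is damaged. The aliphatic glucosinolates of Arabidopsis are made from methionine. Further members act in ethylene and jasmonate synthesis, in shade responses and in chlorophyll synthesis.

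Promoter letters are shown first because stress regulators are known for short shared motifs. CGCGTT, the core of the rapid stress response element known from Arabidopsis, occurred in the 250 bases before the gene start of 6 of 68 members (8.82%), against 2.76% of 24634 promoters of measured genes, counting either strand. The 6 windows below come from the RefSeq TAIR10.1 genome, 5′ to 3′ on the gene's strand, with CGCGTT or its complement in capitals. EXLA3 holds 2 copies. ACS8 makes the ethylene precursor, EXLA3 is an expansin-like protein, AT1G19210 and ddf2 are AP2/ERF factors, AT1G61470 is ribonuclease H-like and AT5G64870 a membrane protein.
AT1G19210 (chr1:6627764-6627809, minus strand): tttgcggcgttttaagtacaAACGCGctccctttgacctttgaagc
ddf2 (chr1:23368459-23368504, minus strand): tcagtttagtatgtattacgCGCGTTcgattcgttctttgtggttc
AT1G61470 (chr1:22677905-22677950, plus strand): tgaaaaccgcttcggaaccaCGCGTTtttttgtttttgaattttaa
ACS8 (chr4:17751922-17751967, plus strand): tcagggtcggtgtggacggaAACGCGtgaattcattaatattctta
EXLA3 (chr3:16892538-16892647, plus strand): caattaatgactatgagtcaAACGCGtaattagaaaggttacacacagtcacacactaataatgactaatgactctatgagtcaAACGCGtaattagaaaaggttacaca
AT5G64870 (chr5:25931499-25931544, minus strand): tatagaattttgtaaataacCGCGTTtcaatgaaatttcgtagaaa

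The G-box CACGTG, a palindrome bound by bHLH and bZIP factors, was present in 9 members (13.2%), against 6.96% of all promoters. The related E-box CACATG, on either strand, was present in 14 members (20.6%), against 11.1%. RRTF1 and AT1G74450, both described below, are shown with their G-boxes in capitals.
RRTF1 (chr4:16451722-16451767, plus strand): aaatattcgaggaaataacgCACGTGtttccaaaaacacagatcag
AT1G74450 (chr1:27982204-27982275, plus strand): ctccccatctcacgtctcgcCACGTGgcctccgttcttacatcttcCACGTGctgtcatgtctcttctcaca

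Other motifs on either strand were near or below the shares of all promoters or moderately above them. The W-box TTGACC, also counted with T as its last letter, was found in 17 members (25.0%, against 28.4%), the evening element core AATATCT in 11 (16.2%, against 9.94%) and the CCA1 site core AAAATCT in 12 (17.7%, against 15.9%). The auxin element TGTCTC was found in 11 members (16.2%, against 10.7%), its form TGTCGG in 5 (7.35%, against 4.29%), the TCP site GGNCCC in 5 (7.35%, against 7.70%), the I-box GATAAG in 6 (8.82%, against 12.4%) and the DRE core CCGAC in 9 (13.2%, against 12.3%). GCCGCC, the GCC-box core, was found in no member, against 1.94% of all promoters. The rapid stress, DRE and GCC elements were added after the members were seen. A match describes letters only, not a bound site or a cause, and no match says nothing of the factor.

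The libraries held 19964397 to 20818004 counts in melinoe, 20677747 to 21103216 in riboflavin and 20972510 to 21421418 in Col-0. FMN/FHY had 720, 802 and 782 counts in melinoe, 2284, 2332 and 2330 in riboflavin and 899, 950 and 860 in Col-0. Melinoe was below Col-0 by a small margin (log2 fold change -0.15, edgeR quasi-likelihood test, Benjamini-Hochberg adjusted p = 0.0168), and a point mutation need not change the count. Markers of root hairs, endodermis, the stomatal lineage and trichomes were all detected, none with a group mean of 0, but not at equal levels. The 7 stomatal lineage markers summed to 38.2 to 40.02 CPM in melinoe, 22.2 to 23.04 CPM in riboflavin and 26.5 to 29.1 CPM in Col-0, with 5 of 6 tested higher in melinoe than in either other group. The 9 endodermis markers summed to 203 to 212 CPM in melinoe, 174 to 184 CPM in riboflavin and 199 to 209 CPM in Col-0, with 5 lower and 1 higher in riboflavin than in Col-0. Over all genes 37.1% were higher in melinoe than in riboflavin and 25.4% higher in melinoe than in Col-0. In riboflavin 37.4% of all genes were lower and 36.8% higher than in Col-0. The part of these markers in the members' values was not tested.

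The 68 genes ranged from 1.56 to 1150 mean CPM in Col-0, with a median of 22.0 CPM, against 11.7 CPM over all genes. Summed over the 68 genes, the libraries had 1937 to 1985 CPM in melinoe, 1605 to 1619.8 CPM in riboflavin and 4728 to 4837 CPM in Col-0. The members' median d was -1.32 in melinoe and -1.43 in riboflavin. In all 68 genes every melinoe library and every riboflavin library lay below every Col-0 library, which held for 32.6% of all tested genes in melinoe and 40.2% in riboflavin (50.6% and 74.2% of all genes were called in either direction); the rule used these contrasts, so nothing is read from the count. The rule's limit passes between close neighbours: BZIP34 was just inside with d of -1.001 in melinoe and -2.26 in riboflavin, and the AP2/ERF gene AT1G77640 just outside with -0.99 in melinoe and -1.40 in riboflavin. AGP30 (-2.63 in melinoe and -1.01 in riboflavin) and AT3G27540 (-1.01 in melinoe and -1.22 in riboflavin) were also just inside, while the B-box gene BBX17 (-1.32 in melinoe and -0.985 in riboflavin) and AT4G12900 (-0.972 in melinoe and -1.28 in riboflavin) were just outside.

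**Figure D1:**
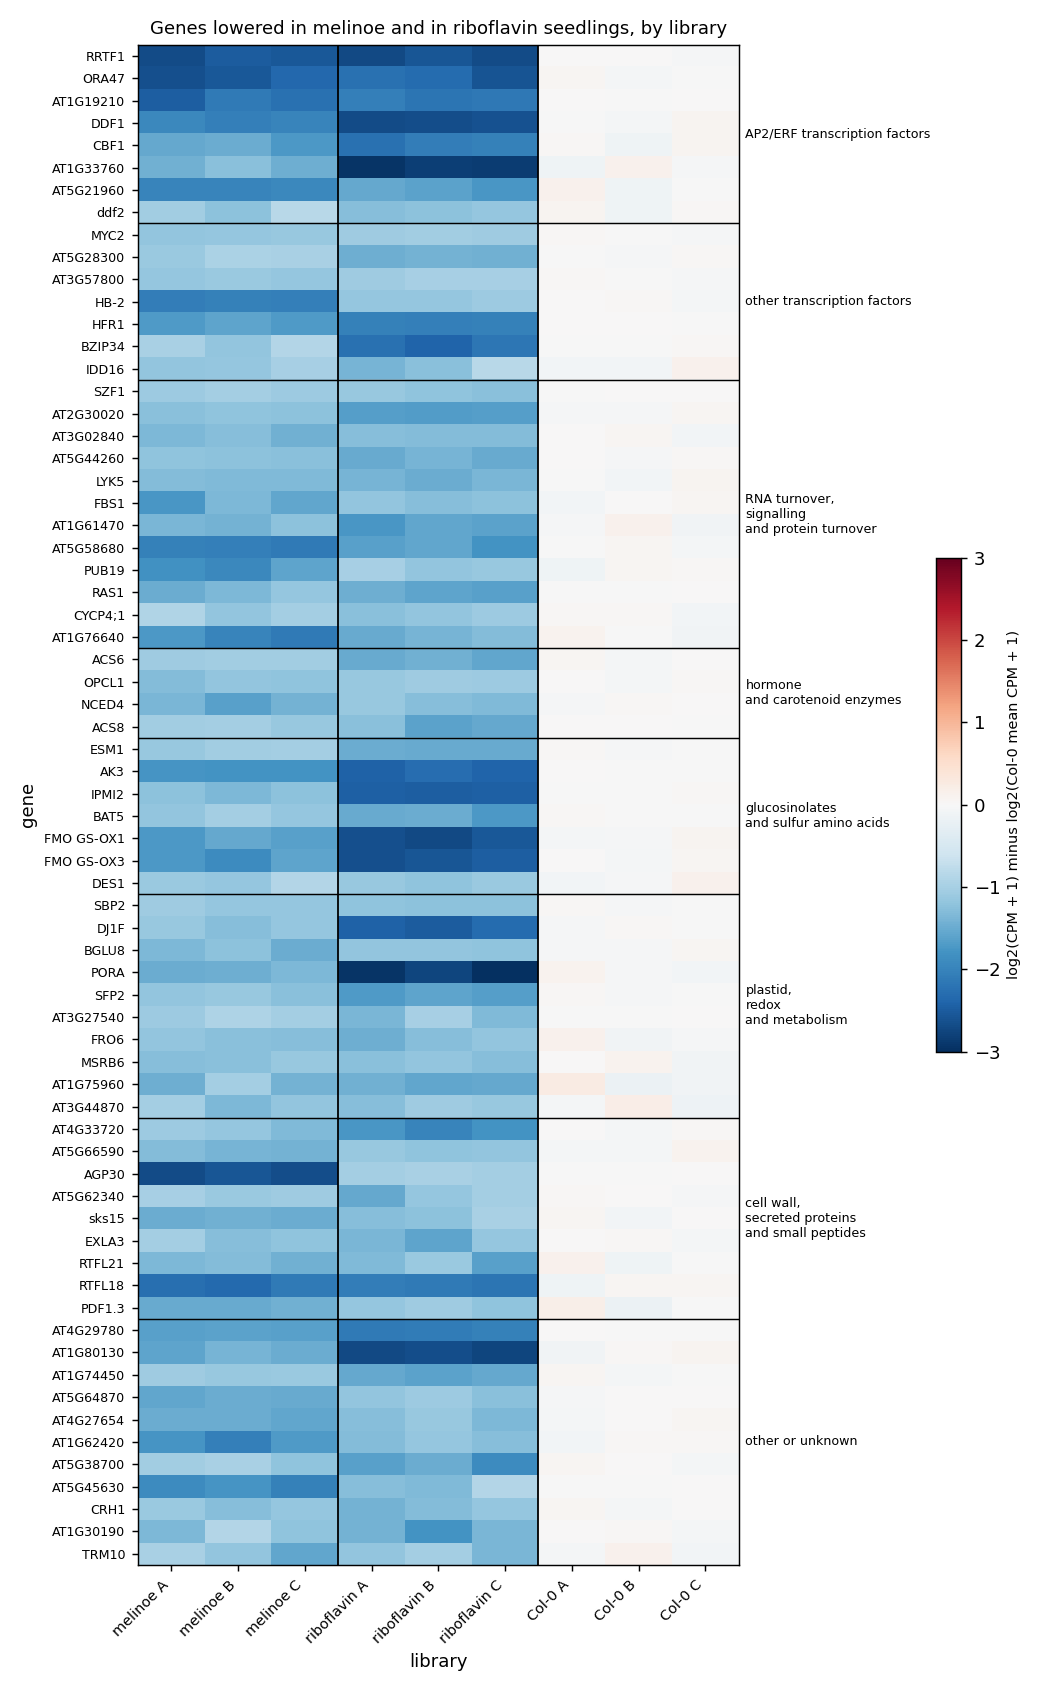
Rows are the 68 genes grouped by role and columns the 9 libraries, melinoe first, then riboflavin and Col-0; colour gives log2(CPM + 1) in a library minus the log2 of the Col-0 mean plus 1, from -3 (dark blue) to 3 (dark red). Every gene is blue in the melinoe and riboflavin libraries by the choice of genes, deepest in melinoe for AGP30, with d of -2.63, RRTF1 and ORA47 and in riboflavin for PORA, with d of -2.92, and AT1G33760.

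In the TAIR10.1 annotation 31 of the 68 (45.6%) have a transcript with a single exon, against 21.3% of all measured genes and 16.0% of the 18372 genes with a Col-0 mean at least as high as the lowest member's. Others have many exons, such as CRH1 with 18 and SFP2 with 17. Their median transcript length was 1571 bases, against 1649 bases for all genes. They lie scattered over the genome, with 22, 7, 10, 15 and 14 members on chromosomes 1 to 5 and 0 pairs within 10 measured genes of each other. Of the members, 9 overlap another annotated gene, 6 of them on the opposite strand. The library kit keeps strand, but the sources used here do not state whether counting used it, so reads of MYC2, AK3, RRTF1, ORA47, IDD16 and AT3G02840 may include reads of the opposite gene. AT3G57800, AT1G19210 and AT3G44870 overlap a gene on their own strand.

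What the rule did not fix is which of melinoe and riboflavin is lower, and this was tested between those 6 libraries across 20344 genes. Of the 65 members with enough reads, 27 (41.5%) were higher in melinoe and 18 (27.7%) lower, against 37.1% and 37.0% of all genes, and 20 were not called (edgeR quasi-likelihood test, Benjamini-Hochberg adjusted p under 0.05). Together 69.2% of tested members were called, close to the 74.1% of all genes, so the count is not read as a property of the members. The median log2 fold change, melinoe over riboflavin, was 0.15 for members and 0.0024 for all genes, and the median size without sign was 0.40 for both. With upper quartile scaling 69.1% of the called members were higher in melinoe, against 60.0% in the result above. Over all called genes the share higher in melinoe also rose with that scaling, from 50.1% to 54.9%. MYC2, AT3G57800, OPCL1, NCED4 and BGLU8 then lost their call as lower. The groups did not overlap for 48 of the 68 members, against 75.2% of genes tested. The bases differ, because the 68 include RTFL18, PDF1.3 and ddf2, which were not tested, and PDF1.3 is among the 48. This count too is not read as a property of the members. Of the roles, which were assigned after the members were seen, 6 of 7 tested genes of glucosinolates and sulfur amino acids were higher in melinoe and 0 lower, while in the cell wall and peptide group 1 was higher and 3 lower of 7. Differences between roles were not tested.

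**Figure D2:**
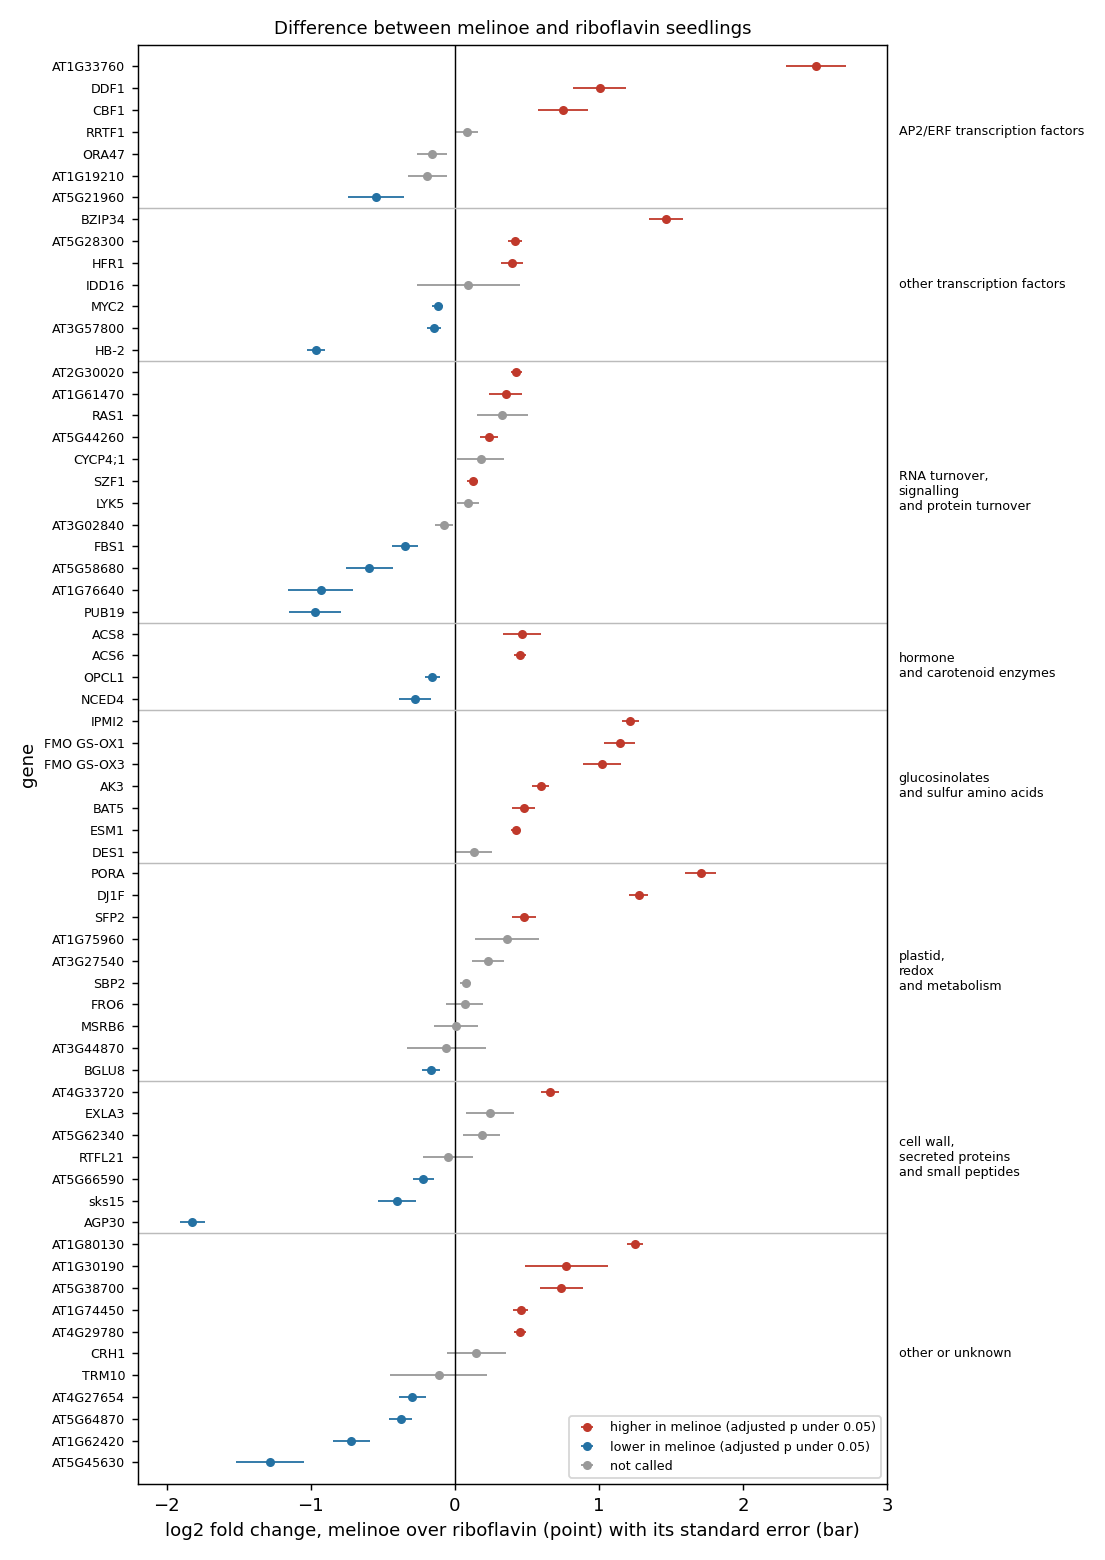
The log2 fold change of melinoe over riboflavin (x axis, points) with its standard error (bars, n = 3 libraries in each group) is drawn for the 65 tested members, sorted within roles; red is higher in melinoe, blue lower and grey not called. AT1G33760 at 2.51 and PORA at 1.71 are farthest to the right and AGP30 at -1.82 farthest to the left, and the glucosinolate and sulfur genes all lie right of 0.

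The 8 AP2/ERF genes were the group with the lowest median d in melinoe, -1.98, with -2.25 in riboflavin. AP2/ERF proteins bind short GC-rich elements and relay cold, drought, wounding and hormone signals. RRTF1 (AT4G34410; chr4:16451876-16453260 in TAIR10.1, as for all positions here, 1 exon), a factor induced by reactive oxygen and strong light, had 12.9, 14.6 and 14.2 CPM in melinoe, 12.5, 13.9 and 12.7 CPM in riboflavin, and 88.5, 88.4 and 85.4 CPM in Col-0. Melinoe and riboflavin overlapped far below the Col-0 libraries, and their difference was not called (log2 fold change 0.08, SE 0.0769, adjusted p = 0.344). ORA47 (AT1G74930; chr1:28143851-28145058), an activator of jasmonate synthesis genes, had 7.76, 8.296 and 9.56 CPM in melinoe, 10.4, 9.86 and 8.08 CPM in riboflavin, and 55.6, 51.2 and 52.9 CPM in Col-0. Here too the melinoe and riboflavin libraries overlapped (log2 fold change -0.16, SE 0.102, adjusted p = 0.161), although the difference was called without melinoe library C (adjusted p = 0.0479) or riboflavin library C (adjusted p = 0.0281). AT1G19210, an AP2/ERF protein of DREB subfamily A-5 like ORA47, had 3.11, 4.22 and 3.89 CPM in melinoe, 4.502, 4.03 and 4.21 CPM in riboflavin, and 22.1, 21.7 and 21.9 CPM in Col-0. Its libraries in the lower groups again overlapped (log2 fold change -0.19, SE 0.136, adjusted p = 0.202). AT5G21960, of the same subfamily, had 1.35, 1.36 and 1.44 CPM in melinoe, 2.203, 2.04 and 1.79 CPM in riboflavin, and 9.196, 7.505 and 8.15 CPM in Col-0, with every melinoe library below every riboflavin library. It was called lower in melinoe (log2 fold change -0.55, SE 0.195, adjusted p = 0.0132), but not with DESeq2 (adjusted p = 0.0735) or without riboflavin library A (adjusted p = 0.0545).

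Another 3 AP2/ERF members, AT1G33760, DDF1 and CBF1, were lower in riboflavin than in melinoe. AT1G33760 (chr1:12237547-12238710), of DREB subfamily A-4, had 3.31, 3.93 and 3.27 CPM in melinoe, 0.527, 0.663 and 0.629 CPM in riboflavin, and 9.803, 11.9 and 10.4 CPM in Col-0. The 3 groups formed separate steps, and melinoe exceeded riboflavin more than for any other tested member (log2 fold change 2.51, SE 0.211, adjusted p = 6.65e-12). DDF1, which represses growth by promoting gibberellin breakdown when overexpressed, had 2.75, 2.47 and 2.64 CPM in melinoe, 1.245, 1.28 and 1.35 CPM in riboflavin, and 13.3, 12.8 and 14.3 CPM in Col-0. Its melinoe libraries all lay above its riboflavin libraries (log2 fold change 1.01, SE 0.185, adjusted p = 1.64e-05). CBF1, a cold-response activator that binds the DRE, had 3.06, 3.202 and 2.55 CPM in melinoe, 1.48, 1.801 and 1.89 CPM in riboflavin, and 11.1, 9.78 and 11.5 CPM in Col-0. It was likewise higher in melinoe (log2 fold change 0.75, SE 0.175, adjusted p = 3.21e-04). The close DDF1 relative ddf2 had 5, 2 and 9 reads in the melinoe libraries, 1, 2 and 3 in the riboflavin libraries and 37, 28 and 34 in the Col-0 libraries, too few for a test between the lower groups.

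DDF1, CBF1 and ddf2 make up 3 of the 6 measured genes of DREB subfamily A-1. The other 3, which missed the limit on d, were also lower than Col-0 in both groups by edgeR's adjusted p. CBF2, in a tandem array with DREB1A and CBF1, averaged 38.9 ± 1.48 CPM in melinoe, 18.6 ± 0.472 CPM in riboflavin and 65.9 ± 3.27 CPM in Col-0 (SD, n = 3 each), a log2 fold change of -0.72 for melinoe over Col-0 and -1.79 for riboflavin over Col-0. CBF4 averaged 0.927 ± 0.113 CPM in melinoe, 0.239 ± 0.047 CPM in riboflavin and 2.68 ± 0.319 CPM in Col-0. DREB1A averaged 1.37 ± 0.115 CPM in melinoe, 1.08 ± 0.335 CPM in riboflavin and 2.49 ± 0.813 CPM in Col-0. CBF1, CBF2 and DREB1A are neighbours of very similar sequence, and how their reads were divided is not known. Of the 5 subfamily genes tested between the lower groups, 4 were higher in melinoe and 0 lower, against 37.1% and 37.0% of all genes. Over the whole AP2/ERF family, members included, 27 of 89 tested genes were higher and 40 lower in melinoe than in Col-0. In riboflavin 33 of 92 were higher and 42 lower than in Col-0. Without the members and 1 gene set aside by name, 27 of 80 were higher and 31 lower in melinoe, and 33 of 83 higher and 33 lower in riboflavin. The shares of all genes were 25.4% higher and 25.2% lower in melinoe and 36.8% higher and 37.4% lower in riboflavin. The rule took out family genes low in both groups, so no direction is read from the rest.

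**Figure D3:**
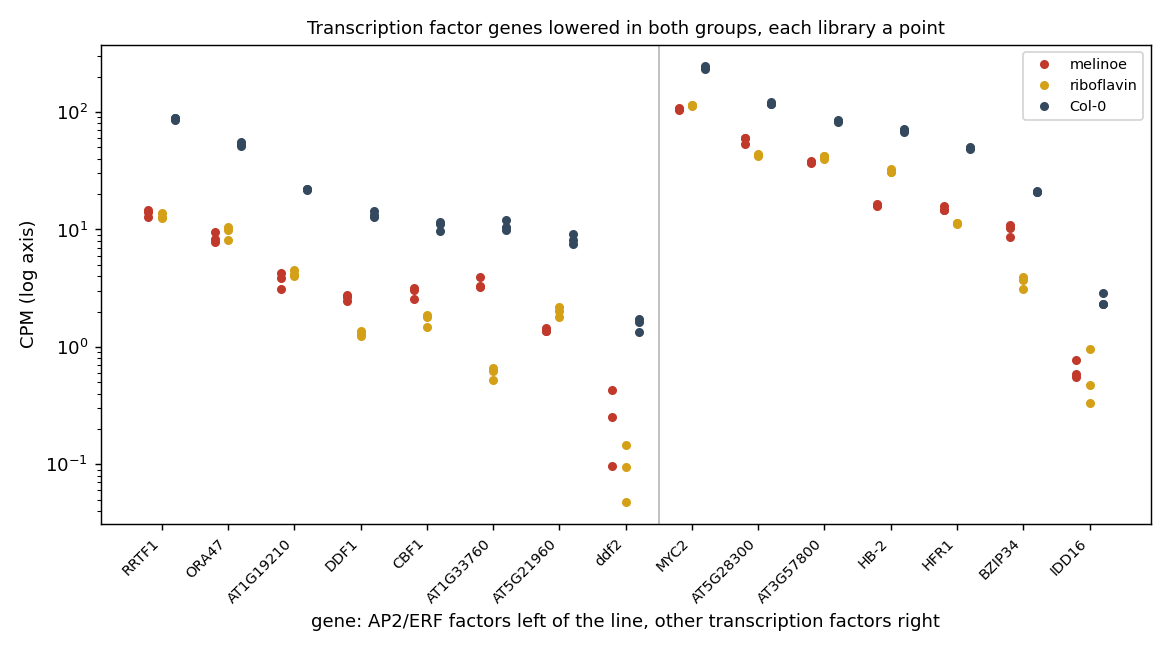
CPM on a log axis for the 8 AP2/ERF genes (left of the line) and the 7 other transcription factor genes (right), each point 1 library, with melinoe left, riboflavin in the middle and Col-0 right for each gene. Col-0 points stand above both other groups for every gene, melinoe and riboflavin points intermix for RRTF1, ORA47 and AT1G19210, and riboflavin lies lowest for AT1G33760 and melinoe lowest for HB-2.

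The 7 other transcription factor genes had a median d of -1.15 in melinoe and -1.14 in riboflavin. MYC2 (AT1G32640; chr1:11798119-11801407, 1 exon), the bHLH factor central to jasmonate responses, had 105, 106 and 108 CPM in melinoe, 114, 115 and 114 CPM in riboflavin, and 245, 239 and 233 CPM in Col-0. The melinoe libraries were just below the riboflavin libraries (log2 fold change -0.12, SE 0.0372, adjusted p = 0.00532), a small difference that was not called with upper quartile scaling (log2 fold change -0.06, adjusted p = 0.117). Its partners with overlapping functions were not lower. MYC3 averaged 77.4 ± 1.03 CPM in melinoe, 103 ± 1.92 CPM in riboflavin and 66.7 ± 2.18 CPM in Col-0. MYC4 averaged 26.9 ± 1.07 CPM in melinoe, 21.1 ± 1.39 CPM in riboflavin and 21.7 ± 0.291 CPM in Col-0 (SD, n = 3 each). MYC3 was higher than Col-0 in melinoe (log2 fold change 0.25) and in riboflavin (0.67), and MYC4 was higher in melinoe (0.35).

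The shade-linked regulators among the members stood in opposite orders. HFR1 (AT1G02340; chr1:465616-467880), an atypical bHLH protein that restrains phytochrome-interacting factors, had 14.6, 15.9 and 14.6 CPM in melinoe, 11.4, 11.1 and 11.4 CPM in riboflavin, and 49.5, 50.1 and 48.7 CPM in Col-0. Riboflavin libraries were the lowest, below every melinoe library (log2 fold change 0.40, SE 0.0747, adjusted p = 2.24e-05). HB-2 (AT4G16780; chr4:9449114-9450905), a homeodomain-leucine zipper factor induced by shade, had 15.98, 16.5 and 16.1 CPM in melinoe, 30.6, 30.99 and 32.5 CPM in riboflavin, and 70.4, 71.9 and 67.6 CPM in Col-0. Here melinoe was lowest, with no overlap (log2 fold change -0.96, SE 0.0599, adjusted p = 5.68e-15). BZIP34, a bZIP factor known from pollen development, had 10.3, 8.68 and 10.95 CPM in melinoe, 3.69, 3.13 and 3.92 CPM in riboflavin, and 20.8, 20.7 and 21.4 CPM in Col-0, and riboflavin lay far below melinoe (log2 fold change 1.47, SE 0.118, adjusted p = 2.48e-12). AT5G28300, of the trihelix type, had 53.9, 60.3 and 59.9 CPM in melinoe, 42.4, 43.9 and 42.9 CPM in riboflavin, and 117, 116 and 121 CPM in Col-0. Melinoe was higher than riboflavin (log2 fold change 0.42, SE 0.0487, adjusted p = 6.69e-09). The bHLH gene AT3G57800 had 37.1, 38.5 and 37.3 CPM in melinoe, 39.99, 41.98 and 41.9 CPM in riboflavin, and 86.3, 84.4 and 82.6 CPM in Col-0. Melinoe was slightly lower than riboflavin (log2 fold change -0.15), but was not called with upper quartile scaling (adjusted p = 0.0895). IDD16, a zinc finger gene near 2.51 CPM in Col-0, was not called.

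The list of shade and PIF-induced genes holds 18 loci, among them HFR1 and HB-2 and 3 set aside by name, PIL1, IAA19 and IAA29. Of the other 13, 10 were lower and 2 higher in melinoe than in Col-0, median log2 fold change -0.66, and 11 lower and 1 higher in riboflavin than in Col-0, median -1.12. Over all genes the medians were -0.0032 and -0.0028, with 25.2% lower and 25.4% higher in melinoe and 37.4% lower and 36.8% higher in riboflavin. Between melinoe and riboflavin, 8 of 12 tested were higher in melinoe and 3 lower, against 37.1% and 37.0% of all genes. ST2A, a jasmonate sulfotransferase in this list, had HB-2's order, at 106 ± 3.21 CPM in melinoe, 297 ± 5.56 CPM in riboflavin and 344 ± 3.51 CPM in Col-0 (SD, n = 3 each), and was lower in melinoe than in riboflavin (log2 fold change -1.496, adjusted p = 3.23e-25). CKX5, a cytokinin oxidase, averaged 6.06 ± 0.303 CPM in melinoe, 2.91 ± 0.248 CPM in riboflavin and 12.7 ± 0.667 CPM in Col-0, the order of HFR1 (log2 fold change 1.05, adjusted p = 1.42e-08). PAR2, another atypical bHLH gene, was higher in melinoe than in riboflavin (log2 fold change 1.89), as was the B-box gene BBX28 (0.53), while neither was lower in melinoe than in Col-0.

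RNA turnover, signalling and protein turnover account for 12 members, with a median d of -1.33 in melinoe and -1.41 in riboflavin. Of these, 4 (33.3%) were higher and 4 (33.3%) lower in melinoe than in riboflavin. This is near the 37.1% higher and 37.0% lower of all genes. SZF1 (AT3G55980; chr3:20776220-20778952), a tandem CCCH zinc finger protein of salt stress, had 179, 186 and 179.8 CPM in melinoe, 172, 164 and 161 CPM in riboflavin, and 378, 383 and 384 CPM in Col-0. The melinoe libraries were slightly above the riboflavin libraries (log2 fold change 0.12, SE 0.0363, adjusted p = 0.00322). AT5G44260, also a CCCH zinc finger gene, had 22.1, 21.8 and 21.3 CPM in melinoe, 17.7, 19.3 and 17.8 CPM in riboflavin, and 52.3, 50.7 and 53.8 CPM in Col-0. Melinoe was higher than riboflavin (log2 fold change 0.24). AT1G61470, the ribonuclease H-like gene with CGCGTT in its promoter, had 6.11, 5.87 and 6.87 CPM in melinoe, 4.45, 5.21 and 4.98 CPM in riboflavin, and 16.9, 19.05 and 15.97 CPM in Col-0, also higher in melinoe (log2 fold change 0.35). AT2G30020 (chr2:12814271-12816360), a type 2C protein phosphatase, had 84.7, 87.5 and 86.5 CPM in melinoe, 64.3, 62.9 and 63.5 CPM in riboflavin, and 198, 199 and 211 CPM in Col-0, with riboflavin lowest (log2 fold change 0.43, SE 0.0405, adjusted p = 9.27e-11). LYK5, a receptor kinase for chitin, had 12.5, 12.3 and 12.2 CPM in melinoe, 11.7, 10.9 and 11.99 CPM in riboflavin, and 32.3, 30.5 and 34.3 CPM in Col-0, and the difference between the lower groups was not called (log2 fold change 0.09, SE 0.0777, adjusted p = 0.300).

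Several signalling members were lowest in melinoe. PUB19, a U-box ubiquitin ligase that restrains drought responses, had 1.503, 1.31 and 1.92 CPM in melinoe, 3.401, 2.84 and 2.998 CPM in riboflavin, and 7.096, 8.22 and 8.06 CPM in Col-0. Its melinoe libraries stood below all riboflavin libraries (log2 fold change -0.97, SE 0.1797, adjusted p = 1.80e-05). AT1G76640, a calcium-binding EF-hand gene, had 1.302, 0.922 and 0.769 CPM in melinoe, 1.68, 1.895 and 2.08 CPM in riboflavin, and 7.19, 6.55 and 6.15 CPM in Col-0, in the same order (log2 fold change -0.93, SE 0.226, adjusted p = 5.38e-04). AT5G58680, an armadillo repeat gene, had 2.104, 2.04 and 1.87 CPM in melinoe, 3.07, 3.27 and 2.66 CPM in riboflavin, and 11.4, 12.2 and 11.2 CPM in Col-0, again without overlap (log2 fold change -0.59, SE 0.165, adjusted p = 0.00194). FBS1, a stress-induced F-box protein, had 8.87, 12.1 and 10.3 CPM in melinoe, 13.5, 12.8 and 13.2 CPM in riboflavin, and 30.4, 32.6 and 33.5 CPM in Col-0. Melinoe was lower than riboflavin (log2 fold change -0.35). AT3G02840, another armadillo repeat gene, had 20.5, 21.8 and 19.5 CPM in melinoe, 21.9, 21.4 and 21.4 CPM in riboflavin, and 55.04, 56.4 and 51.2 CPM in Col-0. It, RAS1, a regulator of abscisic acid and salt responses, and the cyclin gene CYCP4;1 were not called and their libraries overlapped, except that RAS1 was called without melinoe library A (log2 fold change 0.44, adjusted p = 0.0416).

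Among the hormone and carotenoid enzymes, 2 ACC synthases make the ethylene precursor. ACS6 (AT4G11280; chr4:6863979-6866116), the isoform stabilised by MAP kinase phosphorylation, had 96.4, 98.4 and 98.2 CPM in melinoe, 70.6, 73.4 and 68.6 CPM in riboflavin, and 209.7, 195 and 203 CPM in Col-0. The 3 groups were separate, with riboflavin lowest (log2 fold change 0.45, SE 0.0405, adjusted p = 2.91e-11). ACS8 had 5.21, 5.29 and 4.85 CPM in melinoe, 4.36, 3.22 and 3.43 CPM in riboflavin, and 11.9, 11.8 and 11.6 CPM in Col-0, in the same order (log2 fold change 0.47, SE 0.131, adjusted p = 0.00219). ACS5 averaged 1.95 ± 0.398 CPM in melinoe, 1.68 ± 0.326 CPM in riboflavin and 2.91 ± 0.269 CPM in Col-0 and was lower than Col-0 in both groups, as the members were. ACS10, ACS12, ACS7, ACS2 and ACS11 had other orders. ACS10 averaged 44.1 ± 1.85 CPM in melinoe, 47.7 ± 1.475 CPM in riboflavin and 34.5 ± 1.65 CPM in Col-0. It was higher than Col-0 in melinoe (log2 fold change 0.39) and in riboflavin (0.50). ACS12 averaged 31.0 CPM in melinoe, 31.3 CPM in riboflavin and 29.6 CPM in Col-0 and was not called against Col-0 in either group. ACS7 averaged 67.9 ± 1.21 CPM in melinoe, 17.6 ± 0.621 CPM in riboflavin and 23.4 ± 2.03 CPM in Col-0 (SD, n = 3 each), higher than Col-0 in melinoe (log2 fold change 1.58, adjusted p = 2.15e-19) and lower in riboflavin (log2 fold change -0.37, adjusted p = 2.04e-05). ACS2 averaged 2.703 ± 0.435 CPM in melinoe, 13.6 ± 0.847 CPM in riboflavin and 2.601 ± 0.0946 CPM in Col-0 and was higher than Col-0 in riboflavin (log2 fold change 2.42, adjusted p = 3.11e-17), not in melinoe. ACS11 averaged 11.9 ± 1.06 CPM in melinoe, 3.62 ± 0.513 CPM in riboflavin and 5.48 ± 1.21 CPM in Col-0, higher in melinoe than in Col-0 (1.15) and lower in riboflavin (-0.56).

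OPCL1, which activates a jasmonate precursor for beta-oxidation in peroxisomes, had 33.6, 36.3 and 35.98 CPM in melinoe, 38.03, 39.8 and 39.3 CPM in riboflavin, and 85.4, 80.5 and 86.97 CPM in Col-0. Melinoe was slightly lower than riboflavin (log2 fold change -0.16, SE 0.0508, adjusted p = 0.00708), but not called with upper quartile scaling (adjusted p = 0.0720) or without melinoe library A (adjusted p = 0.0560). NCED4, a carotenoid cleavage dioxygenase, had 5.91, 4.803 and 5.67 CPM in melinoe, 7.14, 6.397 and 6.14 CPM in riboflavin, and 16.3, 17.2 and 16.9 CPM in Col-0. Melinoe was also lower than riboflavin (log2 fold change -0.28, SE 0.113, adjusted p = 0.0282). DESeq2 did not call it (adjusted p = 0.102), nor was it called with upper quartile scaling (adjusted p = 0.0754), without melinoe library B (log2 fold change -0.18, adjusted p = 0.171) and without riboflavin library A (adjusted p = 0.131). The list of jasmonate synthesis and signalling holds 24 loci, with MYC2 as member and CORI3 set aside by name. Its other 22 genes split by group: 20 were lower and 2 higher in melinoe than in Col-0, but 13 higher and 8 lower in riboflavin than in Col-0. Over all genes 25.2% were lower and 25.4% higher in melinoe, and 36.8% higher and 37.4% lower in riboflavin, so 8 of 22 is near the share of all genes. Between melinoe and riboflavin 20 of 22 were lower in melinoe and 0 higher (median log2 fold change -1.49), against 37.0% and 37.1% of all genes, whereas MYC2 differed by only -0.12. AOC2, an allene oxide cyclase, averaged 2.42 ± 0.191 CPM in melinoe, 104 ± 0.354 CPM in riboflavin and 23.8 ± 1.56 CPM in Col-0 (SD, n = 3 each). Its paralog AOC1 averaged 20.6 ± 0.925 CPM in melinoe, 114 ± 2.16 CPM in riboflavin and 31.6 ± 0.953 CPM in Col-0, and the split of reads between them is uncertain. AOS, the enzyme before them, averaged 61.1 ± 0.586 CPM in melinoe, 209.8 ± 1.26 CPM in riboflavin and 146 ± 6.54 CPM in Col-0. LOX2, a plastid lipoxygenase at the start of the pathway, averaged 283 ± 7.74 CPM in melinoe, 759 ± 24.1 CPM in riboflavin and 364 ± 12.9 CPM in Col-0. All 4 were lower in melinoe and higher in riboflavin than in Col-0, and were named for the lowest adjusted p between melinoe and riboflavin. LOX3, LOX4, AOC3 and AOC4 were instead lower than Col-0 in both groups. Their log2 fold changes over Col-0 were -1.92, -2.01, -1.09 and -0.69 in melinoe and -0.47, -0.46, -0.48 and -0.75 in riboflavin.

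The glucosinolate and sulfur amino acid genes had a median d of -1.27 in melinoe and -2.37 in riboflavin, the lowest of the roles in riboflavin. ESM1 (AT3G14210; chr3:4729399-4731847), which steers glucosinolate breakdown toward isothiocyanates, had the highest level of all members per length, with authors' means of 451 TPM in melinoe, 344 TPM in riboflavin and 946 TPM in Col-0. Its libraries had 525, 554 and 565 CPM in melinoe, 412, 402 and 404 CPM in riboflavin, and 1180.2, 1123 and 1145 CPM in Col-0, and riboflavin was lowest (log2 fold change 0.42, SE 0.0346, adjusted p = 4.03e-12). IPMI2 (AT2G43100; chr2:17920647-17921844, 1 exon), a subunit of the isomerase in methionine chain elongation, had 43.3, 39.3 and 42.8 CPM in melinoe, 17.8, 17.7 and 17.99 CPM in riboflavin, and 101, 102 and 104 CPM in Col-0. The groups formed 3 separate steps, and melinoe was well above riboflavin (log2 fold change 1.22, SE 0.0585, adjusted p = 9.89e-18). BAT5, the plastid carrier of the chain-elongated keto acids, had 14.6, 16.4 and 14.8 CPM in melinoe, 11.4, 11.6 and 9.67 CPM in riboflavin, and 35.1, 34.2 and 33.9 CPM in Col-0, in the same order (log2 fold change 0.48, SE 0.0813, adjusted p = 5.25e-06).

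FMO GS-OX1 and FMO GS-OX3 are flavin-dependent monooxygenases that oxidise the sulfur of the glucosinolate side chain. FMO GS-OX1 (AT1G65860; chr1:24498954-24502776) had 9.12, 10.6 and 9.85 CPM in melinoe, 4.36, 4.12 and 4.79 CPM in riboflavin, and 31.3, 31.9 and 34.3 CPM in Col-0. FMO GS-OX3 (AT1G62560; chr1:23159734-23162881) had 5.96, 5.29 and 6.72 CPM in melinoe, 2.73, 2.89 and 3.14 CPM in riboflavin, and 22.2, 21.04 and 23.1 CPM in Col-0. Both were higher in melinoe than in riboflavin with no overlap (FMO GS-OX1 log2 fold change 1.14, SE 0.105, adjusted p = 4.47e-11; FMO GS-OX3 log2 fold change 1.02, SE 0.133, adjusted p = 5.41e-08). The other 3 genes of this family differed from them. FMO GS-OX4 averaged 17.4 ± 0.898 CPM in melinoe, 54.02 ± 1.405 CPM in riboflavin and 19.2 ± 0.738 CPM in Col-0 (SD, n = 3 each), higher in riboflavin than in Col-0 (log2 fold change 1.53, adjusted p = 1.22e-19). FMO GS-OX5 averaged 40.6 ± 0.393 CPM in melinoe, 43.5 ± 1.19 CPM in riboflavin and 37.5 ± 1.97 CPM in Col-0. FMO GS-OX2 averaged 3.95 ± 0.592 CPM in melinoe, 3.16 ± 0.576 CPM in riboflavin and 3.99 ± 0.446 CPM in Col-0. These paralogs are similar, so the assignment of their reads is uncertain.

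AK3, an aspartate kinase at the entry to lysine, threonine and methionine synthesis, had 35.3, 34.8 and 34.3 CPM in melinoe, 21.9, 24.2 and 22.5 CPM in riboflavin, and 123, 122 and 122 CPM in Col-0, with riboflavin lowest (log2 fold change 0.59, SE 0.0562, adjusted p = 8.84e-11). DES1, a cysteine desulfhydrase that releases hydrogen sulfide, had 4.66, 4.46 and 5.67 CPM in melinoe, 4.55, 4.26 and 4.59 CPM in riboflavin, and 10.5, 10.8 and 12.2 CPM in Col-0, and the lower groups overlapped (log2 fold change 0.13, SE 0.125, adjusted p = 0.348). Of the 32 loci on the aliphatic glucosinolate list, 31 were measured, 4 are members (IPMI2, BAT5, FMO GS-OX1 and FMO GS-OX3) and 7 more met the limit but were set aside by name: MAM1, BCAT4, CYP79F1, CYP83A1, GSTF11, GSTU20 and MYB29. Among the other genes tested, 10 of 19 were lower and 3 higher in melinoe than in Col-0, 14 of 19 lower and 4 higher in riboflavin than in Col-0, and 13 of 18 higher and 4 lower in melinoe than in riboflavin. Over all genes the shares were 25.2% lower and 25.4% higher in melinoe than in Col-0, 37.4% lower and 36.8% higher in riboflavin than in Col-0, and 37.1% higher and 37.0% lower in melinoe than in riboflavin. IMD1, an isopropylmalate dehydrogenase of the same elongation cycle as IPMI2, averaged 175 ± 3.89 CPM in melinoe, 85.5 ± 3.21 CPM in riboflavin and 339 ± 13.6 CPM in Col-0 (SD, n = 3 each) and had IPMI2's order (log2 fold change 1.02, adjusted p = 3.39e-20 for melinoe over riboflavin). CYP79F2, a cytochrome P450 that takes elongated methionine, averaged 61.5 ± 0.887 CPM in melinoe, 31.4 ± 1.81 CPM in riboflavin and 92.4 ± 1.202 CPM in Col-0. GGP1, a glutathione-conjugate peptidase, averaged 204 ± 4.53 CPM in melinoe, 379 ± 6.36 CPM in riboflavin and 210.3 ± 1.15 CPM in Col-0 and was higher in riboflavin than in Col-0 (log2 fold change 0.89, adjusted p = 1.61e-18).

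**Figure D4:**
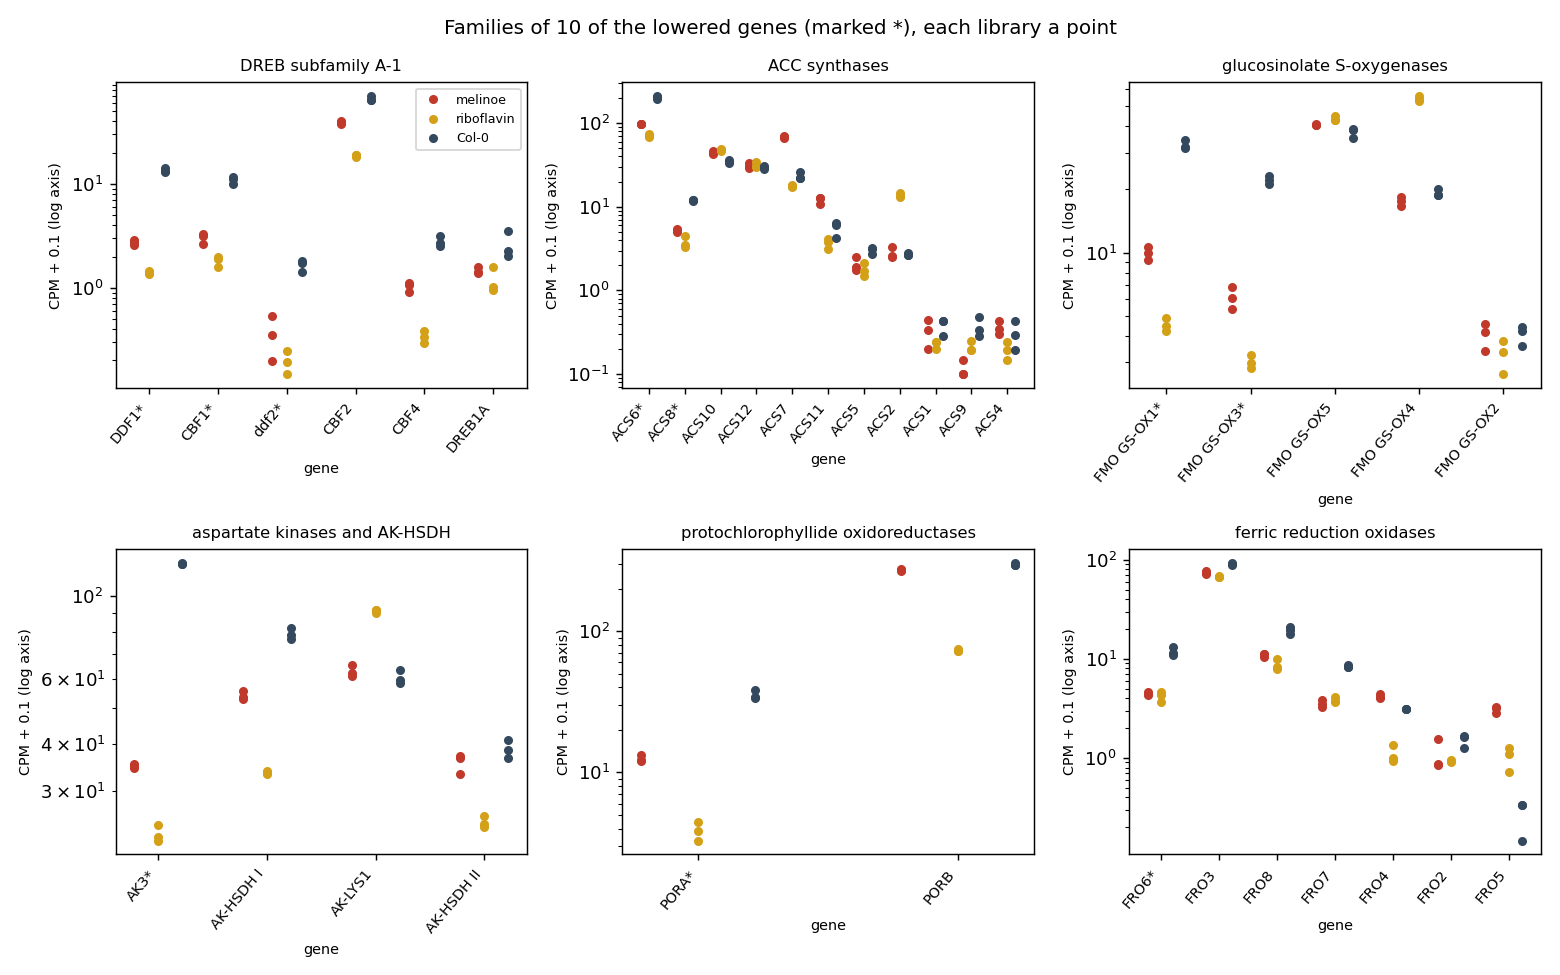
CPM + 0.1 on log axes for all measured genes of 6 families, each point 1 library, with melinoe left, riboflavin in the middle and Col-0 right for each gene; an asterisk marks the 10 genes among the 68. The means of all 6 genes of DREB subfamily A-1 are highest in Col-0, whereas ACS7 is highest in melinoe and ACS2 and FMO GS-OX4 are highest in riboflavin; levels of different genes are not scaled for length.

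Plastid, redox and metabolic enzymes number 10, with 3 higher in melinoe than in riboflavin, 1 lower and 6 not called. The shares of all genes were 37.1% higher and 37.0% lower, together 74.1% called. PORA (AT5G54190; chr5:21990864-21992814), which reduces protochlorophyllide in the light and is known from dark-grown seedlings, had 11.9, 12.1 and 13.2 CPM in melinoe, 3.74, 4.36 and 3.19 CPM in riboflavin, and 37.9, 34.2 and 33.3 CPM in Col-0. Riboflavin libraries were lowest, and the step from melinoe was the second largest among members higher in melinoe (log2 fold change 1.71, SE 0.108, adjusted p = 8.27e-15). PORB, the isoform of green tissue, averaged 272 ± 4.67 CPM in melinoe, 73.1 ± 1.19 CPM in riboflavin and 296 ± 7.13 CPM in Col-0 (SD, n = 3 each), slightly lower than Col-0 in melinoe (log2 fold change -0.09, adjusted p = 0.0396) and far lower in riboflavin (log2 fold change -1.98, adjusted p = 2.94e-25). DJ1F, a DJ-1 family protein, had 32.5, 29.3 and 31.6 CPM in melinoe, 12.5, 11.9 and 13.7 CPM in riboflavin, and 70.7, 74.6 and 71.3 CPM in Col-0, again with riboflavin lowest (log2 fold change 1.27, SE 0.0678, adjusted p = 1.23e-16). SFP2, a sugar transporter-like protein, had 12.97, 13.3 and 12.3 CPM in melinoe, 8.72, 9.62 and 9.09 CPM in riboflavin, and 31.4, 29.8 and 30.4 CPM in Col-0. Melinoe was higher than riboflavin (log2 fold change 0.48). BGLU8, a beta-glucosidase, had 21.5, 23.5 and 19.5 CPM in melinoe, 24.04, 24.1 and 23.6 CPM in riboflavin, and 55.2, 54.5 and 58.9 CPM in Col-0. Melinoe was lower than riboflavin (log2 fold change -0.17). BGLU8 was not called by DESeq2 (adjusted p = 0.0732), with upper quartile scaling (adjusted p = 0.121), without melinoe library A (adjusted p = 0.0523) and without melinoe library C (log2 fold change -0.10, adjusted p = 0.188).

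SBP2, a selenium-binding protein, had 150.0, 141 and 141 CPM in melinoe, 137, 135 and 135 CPM in riboflavin, and 324, 308 and 316 CPM in Col-0. Melinoe libraries were all above riboflavin libraries, but the difference was small and not called (log2 fold change 0.07, SE 0.0375, adjusted p = 0.0739). The edgeR test called it with upper quartile scaling (adjusted p = 0.00284) or without melinoe library B (adjusted p = 0.0285). It was also called at a mean count of at least 50 (adjusted p = 0.0397) and with all 9 libraries in 1 fit (adjusted p = 0.0383). AT3G27540, a glycosyltransferase gene close to the limit of the rule, had 7.31, 8.296 and 7.64 CPM in melinoe, 5.84, 7.77 and 6.05 CPM in riboflavin, and 16.6, 16.6 and 16.7 CPM in Col-0. The lower groups overlapped and their difference was not called (log2 fold change 0.23, SE 0.109, adjusted p = 0.0594). The edgeR test called it without riboflavin library B (log2 fold change 0.37, adjusted p = 0.00493) and with upper quartile scaling (adjusted p = 0.0211). It was also called at a mean count of at least 50 (adjusted p = 0.0488), with all 9 libraries in 1 fit (adjusted p = 0.0376) and with the letters as a block (adjusted p = 0.0420). FRO6, a flavin-containing ferric reductase, had 4.53, 4.29 and 4.22 CPM in melinoe, 3.55, 4.24 and 4.54 CPM in riboflavin, and 12.9, 10.7 and 11.3 CPM in Col-0 and was not called (log2 fold change 0.07, SE 0.1295, adjusted p = 0.649). MSRB6, which repairs oxidised methionine, had 2.705, 2.81 and 3.12 CPM in melinoe and 2.78, 2.99 and 2.76 CPM in riboflavin, overlapping values near one level. AT1G75960, of the AMP-dependent ligases, and AT3G44870, a methyltransferase gene beside similar copies whose reads may be shared, had means under 6 CPM in Col-0 and were not called.

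Cell wall proteins, secreted proteins and small peptides number 9. AGP30 (AT2G33790; chr2:14293561-14295353), an arabinogalactan protein known from roots, had 4.66, 5.14 and 4.803 CPM in melinoe, 16.9, 17.4 and 16.97 CPM in riboflavin, and 35.3, 35.4 and 35.5 CPM in Col-0. The 3 groups stood apart, with melinoe far below riboflavin, the lowest fold change of all tested members (log2 fold change -1.82, SE 0.0868, adjusted p = 7.80e-18). The 9 root hair markers summed to 60.7 to 71.1 CPM in melinoe, 97.7 to 101 CPM in riboflavin and 107 to 126 CPM in Col-0. Of these markers, 5 were lower and 0 higher in melinoe than in riboflavin, against 37.0% and 37.1% of all genes. In melinoe 7 were lower and 0 higher than in Col-0, against 25.2% and 25.4%. In riboflavin 5 were lower and 3 higher than in Col-0, against 37.4% and 36.8%. None had a group mean of 0, and the part of these markers in the AGP30 values was not tested. AT4G33720, a secreted CAP domain protein, had 47.8, 45.02 and 40.4 CPM in melinoe, 29.7, 25.1 and 28.8 CPM in riboflavin, and 104, 99.2 and 105 CPM in Col-0 and ran the other way, with riboflavin lowest (log2 fold change 0.66, SE 0.0627, adjusted p = 9.84e-11). AT5G66590, of the same protein family, was lower in melinoe (log2 fold change -0.22), as was sks15, a SKU5-like protein (-0.40), whose call was lost without riboflavin library C (log2 fold change -0.29, adjusted p = 0.0781). EXLA3, the expansin-like gene whose promoter holds CGCGTT in 2 places, had 3.56, 2.81 and 3.03 CPM in melinoe, 2.59, 2.08 and 3.19 CPM in riboflavin, and 8.45, 8.55 and 7.92 CPM in Col-0, with overlap of the lower groups. It, the peptide gene RTFL21 and AT5G62340, a pectin methylesterase inhibitor-like gene, were not called, except AT5G62340 without riboflavin library C (log2 fold change 0.32, adjusted p = 0.0481).

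RTFL18 and PDF1.3 had few reads outside Col-0. RTFL18, which encodes a small peptide of the ROTUNDIFOLIA-like family, had 1, 0 and 3 reads in the melinoe libraries, 4, 3 and 2 in the riboflavin libraries and 76, 89 and 89 in the Col-0 libraries. PDF1.3, a plant defensin, had 1, 1 and 2 reads in the melinoe libraries, 7, 9 and 6 in the riboflavin libraries and 51, 35 and 41 in the Col-0 libraries. Neither had enough reads for the test between melinoe and riboflavin, and the low counts leave the size of their difference from Col-0 imprecise.

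Of the 11 members with other or unknown functions, 5 (45.5%) were higher in melinoe than in riboflavin, 4 (36.4%) lower and 2 not called. The shares of all genes were 37.1% higher and 37.0% lower. AT4G29780 (chr4:14579563-14582057, 1 exon), annotated as a nuclease, had 91.9, 93.6 and 91.4 CPM in melinoe, 65.3, 65.9 and 69.8 CPM in riboflavin, and 291, 282 and 286 CPM in Col-0. Riboflavin libraries were lowest without overlap (log2 fold change 0.45, SE 0.041, adjusted p = 4.14e-11). AT1G80130, a tetratricopeptide repeat protein, had 41.7, 47.3 and 44.6 CPM in melinoe, 18.5, 19.2 and 17.99 CPM in riboflavin, and 118, 129 and 134 CPM in Col-0, a larger step in the same order (log2 fold change 1.251, SE 0.0583, adjusted p = 4.50e-18). AT1G74450, a BPS1-like protein whose promoter with 2 G-boxes is shown above, had 48.7, 46.1 and 46.9 CPM in melinoe, 34.8, 32.98 and 34.7 CPM in riboflavin, and 106, 98.8 and 102 CPM in Col-0 and the same order (log2 fold change 0.46, SE 0.0495, adjusted p = 1.62e-09).

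AT5G45630, annotated as a senescence regulator, had 0.902, 1.07 and 0.721 CPM in melinoe, 1.92, 1.801 and 2.805 CPM in riboflavin, and 5.98, 6.03 and 6.15 CPM in Col-0, with melinoe lowest (log2 fold change -1.28, SE 0.234, adjusted p = 1.53e-05). AT1G62420, of the DUF506 family, had 3.91, 3.01 and 4.13 CPM in melinoe, 5.7, 6.49 and 5.85 CPM in riboflavin, and 14.7, 16.1 and 16.1 CPM in Col-0, also with melinoe lowest (log2 fold change -0.72, SE 0.128, adjusted p = 1.07e-05). AT5G64870, a membrane-associated SPFH domain protein, had 10.97, 11.4 and 11.3 CPM in melinoe, 14.3, 15.4 and 13.6 CPM in riboflavin, and 33.1, 34.5 and 34.5 CPM in Col-0. Melinoe was lower than riboflavin (log2 fold change -0.38). AT4G27654, uncharacterised, had 7.71, 7.76 and 7.35 CPM in melinoe, 9.15, 10.1 and 8.56 CPM in riboflavin, and 22.5, 23.7 and 24.4 CPM in Col-0. Melinoe was also lower than riboflavin (log2 fold change -0.30). AT5G38700, annotated as a cotton fiber protein, had 4.76, 4.997 and 4.13 CPM in melinoe, 2.83, 3.22 and 2.18 CPM in riboflavin, and 11.2, 10.97 and 10.3 CPM in Col-0. Melinoe was higher than riboflavin (log2 fold change 0.74), as was AT1G30190 with the same annotation (0.77). AT1G30190 was not called by DESeq2 (adjusted p = 0.0706), without melinoe library B (log2 fold change 0.51, adjusted p = 0.161) and without riboflavin library B (log2 fold change 0.498, adjusted p = 0.136). CRH1, an HSP90-like ATPase, and TRM10 were not called.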

How the data were processed

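Expected counts of reads per gene and library, not normalized, were deposited by the authors in 2 tables that share the Col-0 libraries. The deposited TPM values, the authors' log2 fold changes and their p-values and q-values stand beside them per the file headers. Only the authors' group means of TPM were used, for levels between genes and as an alternative; 12 columns of TPM per library and the authors' comparisons were not used. Per the submitters' processing notes the tools were Bowtie2, RSEM and DESeq2 on TAIR10; the design text names SOAPnuke 1.5.2 and HISAT2 2.0.4, so the aligner is not settled. The tables were joined by gene, missing genes set to 0, and all 24635 identifiers matched the TAIR10.1 annotation. Between 1.80% and 1.97% of counts per library were not whole, and counts were rounded for testing.

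Each comparison was fitted on its own 6 libraries across all genes in edgeR 4.0.16 (R 4.3.3): filterByExpr (minimum count 10, minimum total 15), TMM scaling (factors 0.987 to 1.02), the quasi-likelihood test without covariates, a prior count of 0.125, Benjamini-Hochberg adjustment and a call at adjusted p under 0.05. CPM in the text is a count over its library total. SE, the standard error of the log2 fold change, was derived as the size of that change over the square root of the test's F statistic. P-values set the difference between groups against the spread between these libraries. Columns show the group and a letter A to C only, so letters name libraries and were not matched to replicate numbers. Members and lists were chosen with earlier results of these data known; roles, families and 3 motifs were assigned after the members were seen. Named are the 12 members with the highest Col-0 CPM, the 12 with the lowest sum of d, the 8 with the highest and the 8 with the lowest fold change between melinoe and riboflavin, members on the fixed lists and those at the rule's limit. Of each list that holds a member, up to 4 other genes were named by the lowest adjusted p between melinoe and riboflavin. Further members, list genes and family genes were named after their values were seen. Gene lists without a member (auxin, brassinosteroid, gibberellin, cytokinin, cell wall) were not read further. Alternatives were DESeq2 1.42.0, other scalings and filters, all 9 libraries in 1 fit, the letters as a block and leaving out each library. The scripts were tested on simulated data.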

Additional observations from a re-analysis of the deposited data

How the results depend on the processing

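The number of members was 31 with a pseudocount of 5 CPM and 13 with d at most -1.5; both settings removed members and added none. It was 96 with a pseudocount of 0.5 CPM, 87 with deposited TPM (64 of the 68 shared), 63 with TMM-scaled CPM (63 shared), 68 with group medians (65 shared) and 68 to 72 when each library was left out (64 to 68 shared). Members called between melinoe and riboflavin numbered 45, and 39 to 48 under all alternatives: 41 with DESeq2, 42 with upper quartile scaling, 46 without a filter, 39 at a mean count of at least 50, 48 with all 9 libraries and 43 to 46 when a library was left out. Over all genes 15082 were called, 13652 with DESeq2, 15006 with upper quartile scaling and 15459 without a filter. The counts were 13529 at a mean count of at least 50, 15091 with all 9 libraries and 14502 to 14679 when a library was left out. At a mean count of at least 50 fewer members were tested, so its 39 is not a smaller share by itself. For the replicate block, libraries of the same letter in different groups did not deviate together (correlations of -0.0305 to 0.0434 across genes), so the letters share only a name; the block gave 46 called members, 28 higher and 18 lower, and 15089 genes in all. Of 831 alternative values for the 65 tested members, 786 kept direction and call, 18 lost a call (8 members: MYC2, AT5G21960, AT3G57800, OPCL1, NCED4, BGLU8, sks15 and AT1G30190), 13 gained one (5 members: SBP2, ORA47, AT3G27540, AT5G62340 and RAS1) and 14 changed sign, all in 6 members without a call under any alternative. RTFL21 was at 0.0094 with upper quartile scaling. When a library was left out, the log2 fold change ran from -0.24 to 0.10 for AT3G44870, -0.0282 to 0.144 for FRO6, -0.19 to 0.63 for IDD16, -0.055 to 0.0535 for MSRB6, -0.21 to 0.13 for RTFL21 and -0.47 to 0.22 for TRM10. Depth limits RTFL18, PDF1.3 and ddf2, with at most 9 reads in any melinoe or riboflavin library.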

Other observations

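Families of 3 further members were looked at after the members were known. Among LysM receptor kinases, LYK4 averaged 11.2 ± 0.642 CPM in melinoe, 10.2 ± 0.143 CPM in riboflavin and 6.86 ± 0.286 CPM in Col-0. CERK1, the co-receptor of LYK5 in chitin perception, averaged 58.4 ± 1.74 CPM in melinoe, 47.3 ± 2.74 CPM in riboflavin and 38.1 ± 3.18 CPM in Col-0 (SD, n = 3 each). Both were higher than Col-0 in melinoe (0.74 and 0.65 on the log2 scale) and in riboflavin (0.61 and 0.35). LYK3 averaged 31.1 ± 0.961 CPM in melinoe, 16.9 ± 0.713 CPM in riboflavin and 38.8 ± 2.29 CPM in Col-0 and LYK2 0.391 ± 0.1296 CPM in melinoe, 0.384 ± 0.174 CPM in riboflavin and 0.773 ± 0.283 CPM in Col-0, and both were lower than Col-0 in melinoe (-0.28 and -0.94) and in riboflavin (-1.16 and -0.96), like the member LYK5. Among aspartate kinases, the bifunctional AK-HSDH I averaged 54.1 ± 1.404 CPM in melinoe, 33.4 ± 0.324 CPM in riboflavin and 79.2 ± 2.63 CPM in Col-0. It was lower than Col-0 in both groups, like AK3. AK-HSDH II averaged 35.6 ± 2.18 CPM in melinoe, 24.6 ± 0.918 CPM in riboflavin and 38.6 ± 2.19 CPM in Col-0. It was lower than Col-0 in riboflavin (log2 fold change -0.62) and not called in melinoe. AK-LYS1 averaged 62.8 ± 2.16 CPM in melinoe, 91.3 ± 1.05 CPM in riboflavin and 60.3 ± 2.56 CPM in Col-0. It was higher than Col-0 in riboflavin (log2 fold change 0.63, edgeR adjusted p = 3.69e-13). Among ferric reductases, FRO7, whose locus neighbours FRO6, averaged 3.45 ± 0.275 CPM in melinoe, 3.74 ± 0.278 CPM in riboflavin and 8.24 ± 0.208 CPM in Col-0, and FRO8 10.9 ± 0.399 CPM in melinoe, 8.65 ± 1.17 CPM in riboflavin and 19.4 ± 1.62 CPM in Col-0, both lower than Col-0 in both groups, whereas FRO5 averaged 2.998 ± 0.237 CPM in melinoe, 0.926 ± 0.276 CPM in riboflavin and 0.174 ± 0.1104 CPM in Col-0 and was higher in both. Of the 6 tested ferric reductases other than FRO6, 3 were lower and 2 higher in melinoe than in Col-0. In riboflavin 5 were lower and 1 higher than in Col-0. Over all genes 25.2% were lower and 25.4% higher in melinoe, and 37.4% lower and 36.8% higher in riboflavin. FRO6 and FRO7 are similar neighbours, so the split of their reads is uncertain.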
